A study of Mus musculus with 24 samples.

Results

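Wildtype myeloid progenitors (MP) were set against wildtype haematopoietic stem cells (HSC), gene by gene, on Affymetrix expression arrays of 45101 probe sets. The comparison was defined by the sample labels and covers every gene: it used the 3 MP and the 2 HSC arrays of Dnmt1+/+ mice, which are 5 of the 13 arrays of the series, and 12745 of the 18194 genes represented passed a filter on low intensity. The other arrays came from wildtype B cell progenitors (2 arrays) and from MP and HSC of Dnmt1 hypomorph mice of the genotype Dnmt1-/chip (3 arrays each), in which the maintenance DNA methyltransferase is reduced. All mice were of the 129ola strain and 8 to 12 weeks old, cells were sorted by flow cytometry from bone marrow, and RNA of 35000 to 100000 sorted cells was labelled per array. The gates of the sorts are not given in the sources used here, nor is it stated that each array had its own animal. The p-values therefore measure the spread between arrays, part of which may be technical. Arrays of a group that differ in Y-linked transcripts, given below, were not repeats of the same RNA. For the others this is not known.

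HSC sit at the top of the blood hierarchy, divide rarely and can rebuild all blood lineages, whereas myeloid progenitors are cycling descendants restricted to the granulocyte, monocyte, mast cell, erythroid and megakaryocyte lineages. Stem cells are kept in place by transcription factors such as those encoded by Mecom, Hlf and Erg. Progenitors take up the lineage programmes set by Cebpa and Irf8 (granulocytes and monocytes) or by Gata1 and Klf1 (red cells). A population that holds more cells of a type and one whose cells hold more of a transcript cannot be told apart in these bulk values.

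Levels are RMA values, read as log2 intensities, and a difference of 1 is a 2-fold change. Differences are given as log2 fold changes of MP over HSC ± the standard error of limma, and a gene is called where the limma p, adjusted by Benjamini and Hochberg over all 12745 genes, is below 0.05. Of these genes 1757 rose in MP (13.8%) and 2293 fell (18.0%), so that 31.8% were called; 1250 of the rises and 1377 of the falls were at least 2-fold. The 3 MP arrays lay entirely above both HSC arrays in 23.1% of genes and entirely below them in 33.6%, together 56.7%. Of the 4050 called genes 4025 had arrays that did not overlap, so such separation adds little to a call. The log2 fold change had a median of -0.12 over these genes. With arrays centred on their own medians 2063 genes rose and 1642 fell, so that rises made up 55.7% of the calls, against 43.4% without centring. The level of a gene is not comparable with that of another gene, and no detection calls were used, so a level near 4 may be background.

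The HSC arrays resembled each other less (r = 0.977 over all probe sets) than the MP arrays did (0.988 to 0.996), and MP and HSC arrays correlated at 0.942 to 0.959. Leaving out HSC wildtype 2 lowered the count of called genes to 2548. The Y-linked gene Eif2s3y had levels of 9.35, 8.93 and 2.75 in MP and 8.68 and 2.35 in HSC, low in MP wildtype 3 and HSC wildtype 2 alone, so that each group held arrays with and without Y-linked transcripts. Xist, a transcript of female cells, stood at 12.08, 11.66 and 12.81 in MP and 11.96 and 12.63 in HSC. The arrays with Y-linked transcripts thus held Xist too, and whether animals were pooled is not stated in the sources used here. The part of sex-linked transcripts in the other results was not tested.

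**Figure D1:**
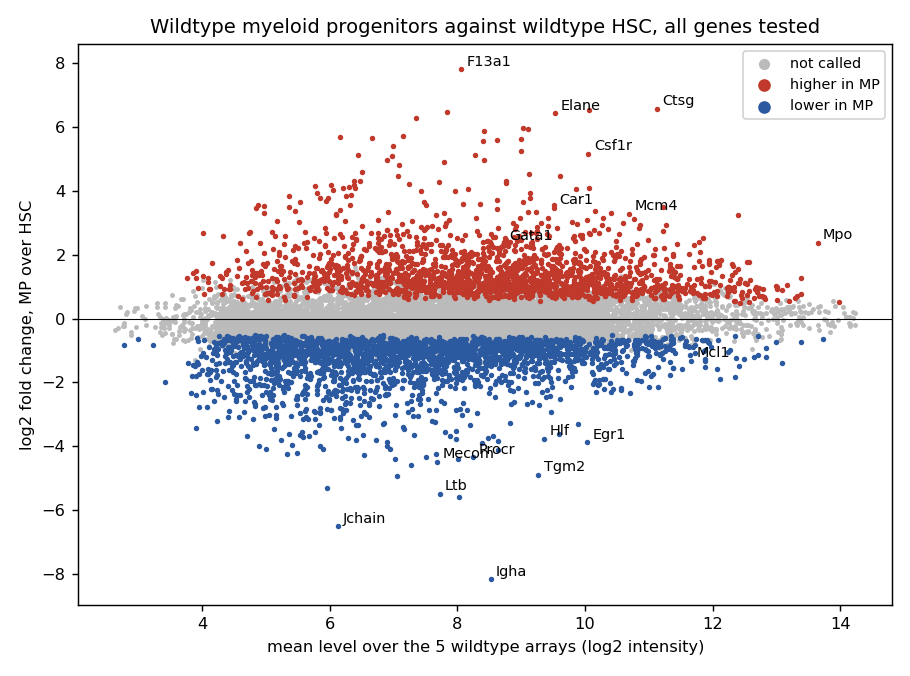
Log2 fold change of MP over HSC (vertical axis) against the mean level over the 5 wildtype arrays (horizontal axis, log2 intensity), with each of the 12745 genes tested as a point. The 1757 genes called higher in MP are red and the 2293 called lower are blue; F13a1 lies at 7.79 and Igha at -8.16.

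The 10 genes that rose most in MP, among those whose arrays did not overlap, included several known from granulocytes, monocytes and mast cells. F13a1, the coagulation factor XIII subunit made by monocytes, had levels of 11.09, 11.10 and 11.35 in MP and 3.43 and 3.34 in HSC, a 222-fold rise (log2 fold change 7.79 ± 0.34, adjusted p = 6.02e-09). Every MP array was above 11, and both HSC arrays were close to the lowest levels on the array. The cathepsin G gene Ctsg stood at 13.73, 13.79 and 13.72 in MP and 8.08 and 6.29 in HSC (6.56 ± 0.39). Ms4a3, a membrane protein gene of granulocyte-monocyte progenitors, stood at 12.56, 12.84 and 12.62 in MP and 7.0 and 5.31 in HSC (6.52 ± 0.42). Chdh, the choline dehydrogenase of mitochondria, had 10.56, 10.11 and 10.60 in MP and 3.70 and 4.22 in HSC (6.46 ± 0.25). In Ctsg, Ms4a3 and Chdh every MP array was above both HSC arrays, which the choice of genes without overlap required. The neutrophil elastase gene Elane had 12.14, 12.35 and 11.80 in MP and 6.4 and 4.96 in HSC (6.42 ± 0.49). In each of these genes, chosen for the largest changes, the groups were separated by more than the whole range within either group. The others of the 10 largest rises were Ccr1, a chemokine receptor gene of myeloid cells (6.29 ± 0.27), the histidine decarboxylase gene Hdc (5.97 ± 0.35), the cystatin F gene Cst7 (5.92 ± 0.28), Ms4a2, the beta chain of the IgE receptor (5.87 ± 0.46), and the actin-severing protein gene Scin (5.73 ± 0.37).

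The largest falls began with antibody genes. Igha, the constant region of immunoglobulin A, had levels of 5.19, 5.24 and 5.34 in MP and 13.40 and 13.43 in HSC (-8.16 ± 1.05, adjusted p = 7.93e-05). Jchain, which joins immunoglobulin chains into polymers, had 3.55, 3.72 and 3.29 in MP and 11.31 and 8.74 in HSC (-6.51 ± 0.55). In Igha and Jchain every MP array was below both HSC arrays, which the choice of genes without overlap required. Antibody is made by plasma cells, so a list of 15 tested genes of antibody-secreting cells, written after these values had been seen, was examined. Of these genes 2 were called higher and 4 lower in MP, beside 13.8% and 18.0% over all genes. Their median was -0.20. Summed over the list, the levels ran from 89 to 92 in MP arrays and from 99.8 to 110 in HSC arrays. The list held Igha itself, its largest fall. The falls and sums therefore restate in part a gene that prompted the list, and are not separate evidence. The plasma cell regulator gene Prdm1 stood at 4.58, 4.74 and 4.57 in MP and 4.29 and 4.12 in HSC (0.43 ± 0.26, adjusted p = 0.226). The surface protein gene Sdc1 stood at 5.55, 6.17 and 5.87 in MP and 6.58 and 5.44 in HSC (-0.15 ± 0.33, adjusted p = 0.754). The secretory cofactor gene Mzb1 stood at 4.47, 5.02 and 4.36 in MP and 7.93 and 6.02 in HSC (-2.36 ± 0.41, adjusted p = 0.000738). In Prdm1 every MP array was above both HSC arrays, and in Mzb1 every MP array was below both HSC arrays, and in Sdc1 the arrays of the groups overlapped. The part of such cells in the other results was not tested. On the antibody-secreting cell list rises numbered 1 without MP wildtype 1. Mzb1 was -1.40 without HSC wildtype 1, still called. Sdc1 was called with the second normalization (-0.68, adjusted p = 0.0233).

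The lymphotoxin gene Ltb had 5.77, 5.64 and 5.17 in MP and 10.96 and 11.05 in HSC (-5.48 ± 0.28). The matrix glycoprotein gene Fstl1 had 4.04, 3.69 and 3.79 in MP and 9.30 and 8.99 in HSC (-5.31 ± 0.41). The proteoglycan gene Bgn had 5.04, 4.75 and 5.47 in MP and 10.20 and 9.84 in HSC (-4.93 ± 0.30). All 3 were above 8.9 in both HSC arrays and below 6 in every MP array. Tgm2, the tissue transglutaminase gene, stood at 6.95, 7.21 and 7.77 in MP and 12.03 and 12.36 in HSC (-4.88 ± 0.25). Upp1, a uridine phosphorylase gene, stood at 5.29, 5.40 and 5.62 in MP and 9.73 and 10.34 in HSC (-4.59 ± 0.26). Myl10, a myosin light chain gene, spread over more than 1 unit within each group, with 4.97, 5.68 and 6.73 in MP and 10.21 and 12.54 in HSC (-5.58 ± 0.64). In Tgm2, Upp1 and Myl10 every MP array was below both HSC arrays, which the choice of genes without overlap required. Hoxb5os, a transcript named for its place opposite a Hox gene, had 5.44, 6.45 and 6.85 in MP and 10.48 and 10.83 in HSC (-4.41 ± 0.40), and the tenth of these genes was Mecom, described with the stem cell genes. Tgm2 was -3.21 with probe sets averaged, still called.

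The granulocyte-monocyte programme was higher in MP: of 29 tested genes of that list 19 rose and 1 fell, with a median of 1.36 beside -0.12 for all genes. Its transcription factors divided. Cebpa, which commits progenitors to granulocytes, had 8.58, 8.21 and 8.40 in MP and 5.70 and 6.65 in HSC (2.22 ± 0.29, adjusted p = 9.36e-05). Irf8, which directs monocyte and dendritic cell fate, had 11.35, 11.64 and 11.43 in MP and 7.32 and 7.55 in HSC (4.04 ± 0.35, adjusted p = 2.42e-06). Gfi1, a repressor needed for neutrophils, stood at 10.26, 9.82 and 10.14 in MP and 9.01 and 8.31 in HSC (1.41 ± 0.32). In Cebpa, Irf8 and Gfi1 every MP array was above both HSC arrays. Spi1, which encodes PU.1 and acts in both stem cells and progenitors, was not called, with 8.45, 9.22 and 8.55 in MP and 8.81 and 8.98 in HSC (-0.16 ± 0.25, adjusted p = 0.673). Nab2, a co-repressor of Egr proteins, was the only member called lower, at 5.28, 5.31 and 5.45 in MP and 7.52 and 7.34 in HSC (-2.08 ± 0.25). In Nab2 every MP array was below both HSC arrays, and in Spi1 the arrays of the groups overlapped. Of the 8 tested primary granule protein genes 6 rose. The myeloperoxidase gene Mpo had 14.57, 14.63 and 14.58 in MP and 12.19 and 12.26 in HSC (2.37 ± 0.23, adjusted p = 7.53e-06). The proteinase 3 gene Prtn3 had 13.64, 13.73 and 13.68 in MP and 10.29 and 10.62 in HSC (3.23 ± 0.21, adjusted p = 2.08e-07). In wildtype B progenitors Mpo stood at 4.32 and 5.19 and Prtn3 at 4.22 and 4.82, below both HSC arrays. Gfi1 was not called without HSC wildtype 2 (1.06, adjusted p = 0.0748).

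Growth factor and Fc receptors of the lineage were not uniform. The receptor gene for macrophage colony-stimulating factor, Csf1r, rose 35.8-fold, with 12.05, 12.10 and 12.21 in MP, against 7.06 and 6.85 in HSC (5.16 ± 0.24, adjusted p = 9.37e-09). The receptor gene for granulocyte colony-stimulating factor, Csf3r, was not called, at 9.28, 9.59 and 9.44 in MP and 9.29 and 10.16 in HSC (-0.29 ± 0.29, adjusted p = 0.476). The receptor subunit gene Csf2ra was not called either, at 8.07, 8.73 and 8.15 in MP and 7.04 and 8.30 in HSC (0.65 ± 0.33, adjusted p = 0.155). The immunoglobulin receptor gene Fcgr3, which serves to define granulocyte-monocyte progenitors in sorts, had 8.75, 9.08 and 8.92 in MP and 3.31 and 3.24 in HSC (5.64 ± 0.21). In Fcgr3 every MP array was above both HSC arrays, and in Csf3r and Csf2ra the arrays of the groups overlapped. Its inhibitory relative Fcgr2b had 9.77, 9.64 and 10.12 in MP and 7.77 and 8.32 in HSC (1.80 ± 0.22). Nkg7, a granule membrane protein gene shared with natural killer cells, stood at 11.08, 11.69 and 10.98 in MP and 8.75 and 8.23 in HSC (2.76 ± 0.27). The annexin gene Anxa3 stood at 10.86, 10.83 and 10.89 in MP and 5.61 and 4.95 in HSC (5.58 ± 0.28). Leaving out each array in turn gave 15 to 19 rises and 1 fall for the whole list. Csf2ra was called without HSC wildtype 2 (1.28, adjusted p = 0.0145). Fcgr2b was 1.02 with probe sets averaged, still called.

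Of 22 tested genes of mature neutrophils and monocytes 9 rose and 1 fell (median 0.64), beside 13.8% and 18.0% over all genes. Of the 14 that encode secondary or tertiary granule proteins 3 rose and 1 fell (median -0.28), while 6 of 8 surface protein and chemokine genes rose (median 1.57), beside 6 of 8 primary granule genes (median 1.60); no difference between these sets was tested. The secondary granule genes Ltf, Camp and Ngp had values of -0.82 ± 0.37 (adjusted p = 0.109), -0.98 ± 0.58 (adjusted p = 0.215) and 0.35 ± 0.89 (adjusted p = 0.792). The calprotectin genes S100a8 and S100a9, abundant in mature neutrophils, were at 8.06, 8.92 and 7.99 in MP and 9.66 and 7.93 in HSC, and at 5.36, 6.51 and 5.35 in MP and 8.23 and 6.55 in HSC, and neither was called (adjusted p = 0.641 and 0.0575). In S100a9 every MP array was below both HSC arrays, and in S100a8 the arrays of the groups overlapped. Their highest level was in HSC wildtype 1. The lysozyme gene Lyz2 had 9.87, 10.24 and 10.04 in MP and 10.79 and 10.95 in HSC (-0.82 ± 0.36, adjusted p = 0.0999). Pglyrp1, a granule protein gene that binds peptidoglycan, was the member called lower, at 7.10, 7.84 and 7.29 in MP and 9.17 and 8.26 in HSC (-1.31 ± 0.36, adjusted p = 0.0141). Among the called members the monocyte chemokine receptor gene Ccr2 had 10.84, 10.41 and 10.63 in MP and 5.12 and 5.03 in HSC (5.55 ± 0.24, adjusted p = 6.02e-09). In Ccr2 every MP array was above both HSC arrays, and in Lyz2 and Pglyrp1 every MP array was below both HSC arrays. The NADPH oxidase gene Cybb had 7.82, 7.93 and 8.07 in MP and 4.05 and 3.60 in HSC (4.11 ± 0.29). The lipopolysaccharide receptor gene Cd14 had 7.6, 8.43 and 7.92 in MP and 6.12 and 6.39 in HSC (1.73 ± 0.34). The adaptor gene Tyrobp had 10.64, 11.11 and 10.82 in MP and 8.69 and 7.88 in HSC (2.57 ± 0.29). In Cybb, Cd14 and Tyrobp every MP array was above both HSC arrays. Pglyrp1 was not called without MP wildtype 1 or HSC wildtype 1 (adjusted p between 0.0566 and 0.158), with -0.85 without HSC wildtype 1. S100a9 was called without MP wildtype 2, HSC wildtype 2, B progenitor wildtype 1 or 2 or MP hypomorph 1 (adjusted p between 0.0293 and 0.0418), and with the second normalization (-1.65, adjusted p = 0.0391). Lyz2 was called without HSC hypomorph 3 (-0.82, adjusted p = 0.0449), and with the second normalization (-0.88, adjusted p = 0.0455). Ccr2 was 3.12 and Cybb 1.65 with probe sets averaged, both still called.

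Mast cell and basophil genes were mostly higher in MP. Of 15 tested members 8 rose and 1 fell, with a median of 1.62. Cpa3, the mast cell carboxypeptidase gene, had 11.25, 11.18 and 10.87 in MP and 5.45 and 6.24 in HSC (5.26 ± 0.30, adjusted p = 6.22e-08). The basophil protease gene Mcpt8 had 9.46, 10.23 and 9.55 in MP and 4.76 and 4.93 in HSC (4.90 ± 0.26, adjusted p = 2.93e-08). The granzyme gene Gzmb stood at 8.82, 8.81 and 9.02 in MP and 4.05 and 3.77 in HSC (4.97 ± 0.46). In Cpa3, Mcpt8 and Gzmb every MP array was above both HSC arrays. Fcer1a, the IgE-binding chain of the high-affinity receptor, stood at 8.00, 8.28 and 8.31 in MP and 4.02 and 3.79 in HSC (4.29 ± 0.34). Hdc, which makes histamine, and Ms4a2 were above 10 in every MP array and below 6 in both HSC arrays. Siglecf, a lectin gene of eosinophils and mast cells, had 8.54, 8.49 and 7.98 in MP and 3.77 and 3.71 in HSC (4.59 ± 0.25). The member called lower was Lat, a signalling adaptor gene of mast and T cells, at 6.84, 7.31 and 6.57 in MP and 8.59 and 8.68 in HSC (-1.73 ± 0.27). In Siglecf every MP array was above both HSC arrays, and in Lat every MP array was below both HSC arrays. The list median was 3.74 without HSC wildtype 1 and 1.24 without MP wildtype 2, with 7 to 9 rises.

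**Figure D2:**
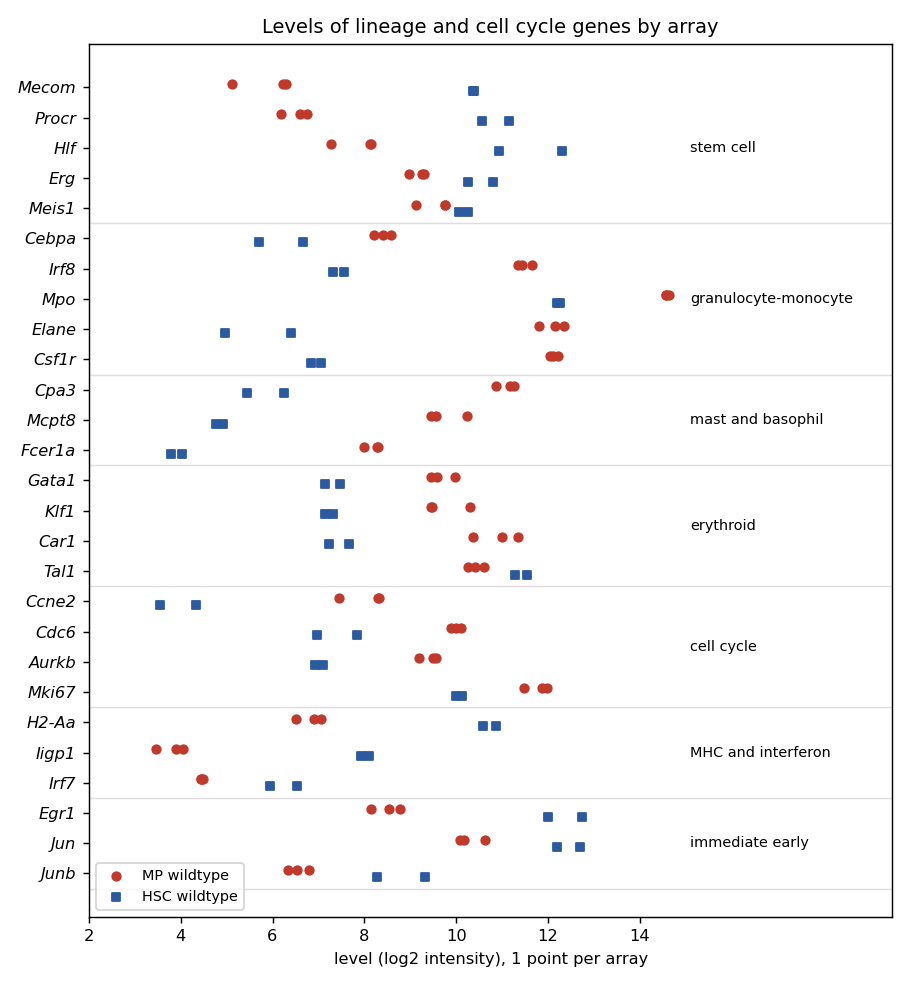
Levels (horizontal axis, log2 intensity) of 27 genes named in the text, with a red point for each of the 3 MP arrays and a blue square for each of the 2 HSC arrays. The MP points of Mpo, Csf1r and Irf8 lie right of the HSC squares, and those of Mecom, Procr and Hlf lie left of them; for Meis1 the groups come close, with MP at 9.13 to 9.77 and HSC at 10.06 and 10.25.

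Erythroid genes moved in both directions. Of 42 tested members 10 rose and 10 fell, beside 13.8% and 18.0% over all genes. Their median was -0.18 (-0.03 with arrays centred). The driver genes of the red cell lineage were higher in MP: Gata1 had 9.58, 9.97 and 9.45 in MP and 7.47 and 7.15 in HSC (2.36 ± 0.31, adjusted p = 8.66e-05). Klf1, which activates the globin genes, had 9.45, 10.30 and 9.47 in MP and 7.14 and 7.32 in HSC (2.51 ± 0.31, adjusted p = 5.36e-05). In Gata1 and Klf1 every MP array was above both HSC arrays. Other factors of the same complexes were lower. Tal1 stood at 10.61, 10.26 and 10.41 in MP and 11.27 and 11.55 in HSC (-0.98 ± 0.23, adjusted p = 0.00589). The Gata1 cofactor gene Zfpm1 stood at 8.02, 8.44 and 7.82 in MP and 9.15 and 9.59 in HSC (-1.27 ± 0.32). Lyl1 stood at 10.22, 10.97 and 10.44 in MP and 11.84 and 12.29 in HSC (-1.52 ± 0.26). In Tal1, Zfpm1 and Lyl1 every MP array was below both HSC arrays. The repressor gene Gfi1b stood at 8.66, 8.70 and 8.20 in MP and 8.90 and 9.65 in HSC (-0.76 ± 0.26, adjusted p = 0.0408). Over the 11 tested transcription factors of the list, 3 rose and 6 fell. Tal1, Gfi1b and Bcl11a are also on the stem cell list, so the counts of these lists are not separate. Tal1 was not called without HSC wildtype 2 (-0.85, adjusted p = 0.0601). Zfpm1 was not called without HSC wildtype 2 (-1.06, adjusted p = 0.0858). Gfi1b was not called without MP wildtype 1 or 3, HSC wildtype 2, MP hypomorph 3 or HSC hypomorph 2 (adjusted p between 0.0528 and 0.387), with -0.38 without HSC wildtype 2.

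Among the receptors and membrane proteins of red cells 6 of 17 rose and none was called lower (0 at an unadjusted limma p below 0.05). The transferrin receptor gene Tfrc, which supplies iron, had 10.26, 9.85 and 10.15 in MP and 7.83 and 7.64 in HSC (2.36 ± 0.22, adjusted p = 5.01e-06). The water channel gene Aqp1 had 8.85, 9.29 and 8.65 in MP and 4.77 and 5.98 in HSC (3.55 ± 0.32). Rhag, of the Rh complex, had 5.98, 5.64 and 5.51 in MP and 4.21 and 3.71 in HSC (1.75 ± 0.41). In Tfrc, Aqp1 and Rhag every MP array was above both HSC arrays. The blood group genes Ermap and Kel rose by 3.14 ± 0.47 and 2.18 ± 0.40. The erythropoietin receptor gene Epor (0.63 ± 0.32, adjusted p = 0.157) and the ankyrin gene Ank1 (0.05 ± 0.26, adjusted p = 0.896) were not called. Of 14 genes listed under haem synthesis, globins and enzymes 1 rose and 4 fell, beside 13.8% and 18.0% over all genes. The falls include Trib3, which is not a gene of haem synthesis or a globin gene. The carbonic anhydrase genes went opposite ways: Car1, an early red cell enzyme, had 10.99, 11.35 and 10.36 in MP and 7.22 and 7.66 in HSC (3.46 ± 0.42, adjusted p = 5.22e-05). Car2 had 11.37, 10.12 and 10.77 in MP and 12.49 and 12.13 in HSC (-1.55 ± 0.42, adjusted p = 0.0133). Trib3, a pseudokinase gene of the stress response, fell most on the list, with 5.38, 5.09 and 5.59 in MP and 9.14 and 9.27 in HSC (-3.85 ± 0.30), and the haem synthesis gene Urod was not called (-0.54 ± 0.25, adjusted p = 0.122). In Car1 every MP array was above both HSC arrays, and in Car2 and Trib3 every MP array was below both HSC arrays. Rhag was not called without HSC wildtype 2 (1.49, adjusted p = 0.0643). Car2 was not called without HSC wildtype 1 (-1.38, adjusted p = 0.0837). Urod was called without MP wildtype 2 (-0.80, adjusted p = 0.0152). Tfrc was 0.56 with probe sets averaged, still called.

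Of 25 tested megakaryocyte and platelet genes 4 were higher and 6 lower, beside 13.8% and 18.0% over all genes. Their median was -0.12 (0.03 with arrays centred), beside -0.12 over all genes. The platelet factor 4 gene Pf4 had 10.95, 11.08 and 11.26 in MP and 10.42 and 9.29 in HSC (1.24 ± 0.41, adjusted p = 0.0316). Plek, the main kinase C substrate of platelets, had 10.54, 9.52 and 10.33 in MP and 7.86 and 7.6 in HSC (2.39 ± 0.38). In Pf4 and Plek every MP array was above both HSC arrays. The integrin gene Itga2b, which marks megakaryocytes and their progenitors, was not called (0.55 ± 0.23, adjusted p = 0.0809). Lower in MP was the platelet glycoprotein gene Gp9, with 7.17, 7.77 and 7.73 in MP and 9.01 and 9.19 in HSC (-1.55 ± 0.30). The thromboxane synthase gene Tbxas1 had 7.66, 7.85 and 7.78 in MP and 9.91 and 10.96 in HSC (-2.67 ± 0.42). Nbeal2, needed for platelet granules, had 7.42, 7.95 and 7.64 in MP and 8.88 and 9.99 in HSC (-1.76 ± 0.30). In Gp9, Tbxas1 and Nbeal2 every MP array was below both HSC arrays. The integrin gene Itgb3 was lower too (-0.81 ± 0.23). On the megakaryocyte and platelet list rises numbered 2 without MP wildtype 3. Pf4 was not called without MP wildtype 1, 2 or 3 or HSC wildtype 2 (adjusted p between 0.0569 and 0.338), with 0.67 without HSC wildtype 2. Itgb3 was not called without MP wildtype 1 or HSC wildtype 1 (adjusted p between 0.0646 and 0.202), with -0.42 without HSC wildtype 1, nor with probe sets averaged (-0.51, adjusted p = 0.0525). Itga2b was called without HSC hypomorph 1 (0.55, adjusted p = 0.0465). Nbeal2 was -0.96 with probe sets averaged, still called.

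Stem cell genes were mostly lower in MP. Of 60 tested members 39 fell and 1 rose in MP, with a median of -1.34, and MP arrays averaged 7.20 ± 0.13 (SD, n = 3) and HSC arrays 8.94 ± 0.09 (SD, n = 2) over the list. Leaving out each array in turn left 30 to 41 falls. Mecom, a zinc finger factor required for stem cell maintenance, had 6.30, 5.12 and 6.22 in MP and 10.39 and 10.36 in HSC (-4.49 ± 0.32, adjusted p = 4.63e-07). Hlf, a leucine zipper factor of immature cells, stood at 8.14, 7.28 and 8.13 in MP and 10.94 and 12.30 in HSC (-3.77 ± 0.40, adjusted p = 1.42e-05). Prdm16 stood at 5.16, 4.35 and 6.39 in MP and 9.71 and 8.85 in HSC (-3.98 ± 0.54). In Mecom, Hlf and Prdm16 every MP array was below both HSC arrays. Erg fell less, with 9.26, 8.98 and 9.31 in MP and 10.79 and 10.25 in HSC (-1.34 ± 0.27), as did Gata3 (-1.89 ± 0.31). Meis1, a partner of Hox proteins, was not called, with 9.76, 9.13 and 9.77 in MP and 10.06 and 10.25 in HSC (-0.60 ± 0.33, adjusted p = 0.19); with probe sets averaged it was -0.96 and called. In Erg and Meis1 every MP array was below both HSC arrays. Meis1 was called with the second normalization (-0.80, adjusted p = 0.037), and with probe sets averaged (-0.96, adjusted p = 0.00474). Mecom was -1.83 and Prdm16 -2.04 with probe sets averaged, both still called.

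The surface proteins used to sort stem cells did not move alike. Procr, the protein C receptor, had 6.59, 6.19 and 6.74 in MP and 11.15 and 10.56 in HSC (-4.35 ± 0.41, adjusted p = 5.1e-06). Esam, a junction protein, had 6.41, 6.44 and 6.43 in MP and 10.13 and 10.04 in HSC (-3.66 ± 0.32). Slamf1, which encodes CD150, was not called, with 8.31, 7.97 and 8.20 in MP and 8.03 and 8.30 in HSC (-0.01 ± 0.24, adjusted p = 0.986). In Procr and Esam every MP array was below both HSC arrays, and in Slamf1 the arrays of the groups overlapped. Kit, the stem cell factor receptor that stem cells and progenitors share, was not called, at 10.80, 9.74 and 10.29 in MP and 9.48 and 10.12 in HSC (0.48 ± 0.47, adjusted p = 0.469). The angiopoietin receptor gene Tek was not called either, at 6.98, 5.58 and 7.01 in MP and 7.59 and 7.36 in HSC (-0.95 ± 0.42, adjusted p = 0.0995). The exception to the direction of the list was Abcb1b, an efflux pump gene, at 8.56, 8.61 and 8.66 in MP and 7.41 and 7.02 in HSC (1.39 ± 0.30). The cell cycle inhibitor gene Cdkn1c, which encodes p57 and keeps stem cells quiescent, had 4.08, 4.85 and 3.83 in MP and 8.56 and 7.91 in HSC (-3.98 ± 0.42, adjusted p = 1.59e-05), close to the lower end of the array in MP. Tek was called without HSC hypomorph 3 (-0.95, adjusted p = 0.048). Abcb1b was 0.78 with probe sets averaged, still called.

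Of 10 tested Hox genes 5 fell and none rose (median -0.85; rises, 0 at an unadjusted limma p below 0.05). On the Hox list falls numbered 2 without MP wildtype 1 or 3 and 3 without MP hypomorph 1 or 3 or HSC hypomorph 2. Hoxb5, a marker of stem cells, had 3.58, 3.69 and 3.42 in MP and 5.53 and 5.81 in HSC (-2.10 ± 0.31, adjusted p = 0.000221). Hoxb2 had 3.87, 4.35 and 4.01 in MP and 5.14 and 5.56 in HSC (-1.27 ± 0.33). Hoxb4 had 6.37, 6.41 and 6.46 in MP and 7.58 and 6.97 in HSC (-0.86 ± 0.26, adjusted p = 0.022). Hoxa9, which early progenitors also express, was above 10 in every array and not called, with 11.51, 10.97 and 11.51 in MP and 12.41 and 11.93 in HSC (-0.84 ± 0.51, adjusted p = 0.225), and Hoxa10 was not called either (-0.92 ± 0.35, adjusted p = 0.0585). Hoxa5 was called at -0.72 ± 0.24, adjusted p = 0.0371. Hoxb2 was not called without HSC wildtype 2 (-1.06, adjusted p = 0.0931). Hoxb4 was not called without MP wildtype 1 or 3 or HSC wildtype 1 (adjusted p between 0.052 and 0.199), with -0.55 without HSC wildtype 1. Hoxa5 was not called without MP wildtype 1, 2 or 3, HSC wildtype 1, MP hypomorph 1 or 3 or HSC hypomorph 2 (adjusted p between 0.0505 and 0.353), with -0.35 without HSC wildtype 1 and -1.09 without HSC wildtype 2. Hoxa9 was called without B progenitor wildtype 1 or 2 (adjusted p = 0.0255 in both), and with the second normalization (-0.82, adjusted p = 0.0372), and with probe sets averaged (-0.61, adjusted p = 0.0312). Hoxa10 was called without HSC wildtype 2 or HSC hypomorph 3 (adjusted p between 0.0171 and 0.0369), and with probe sets averaged (-0.70, adjusted p = 0.0118). Hoxb4 was -0.54 and Hoxa5 -1.75 with probe sets averaged, both still called.

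Imprinted genes, which are read from 1 parental copy and of which several are known to be active in quiescent stem cells, included 7 falls and 1 rise among 21 tested (median -0.40). The noncoding gene Meg3 had 5.79, 6.0 and 5.55 in MP and 9.01 and 9.49 in HSC (-3.47 ± 0.23, adjusted p = 2.82e-07). Ndn, a growth suppressor, had 6.98, 6.64 and 7.34 in MP and 10.77 and 10.69 in HSC (-3.74 ± 0.23, adjusted p = 1.28e-07). Phlda2 stood at 4.38, 4.44 and 4.16 in MP and 7.57 and 7.36 in HSC (-3.14 ± 0.36). In Meg3, Ndn and Phlda2 every MP array was below both HSC arrays. The growth factor gene Igf2 stood at 5.51, 5.35 and 5.34 in MP and 6.61 and 6.95 in HSC (-1.38 ± 0.20). Its receptor gene Igf2r stood at 4.13, 4.21 and 4.11 in MP and 5.26 and 5.68 in HSC (-1.32 ± 0.21). In Igf2 and Igf2r every MP array was below both HSC arrays. Cdkn1c is on this list too. The member called higher was the ubiquitin ligase gene Ube3a (1.07 ± 0.32). Igf2r was -2.01 with the second normalization, still called. Ube3a was not called without MP wildtype 1 or 3 or HSC wildtype 1 (adjusted p between 0.0558 and 0.217), with 0.64 without HSC wildtype 1, nor with probe sets averaged (0.43, adjusted p = 0.0781). Meg3 was -1.38, Ndn -2.41 and Igf2 -0.78 with probe sets averaged, all still called.

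Lymphoid genes showed no common direction. Of 28 tested genes of lymphoid priming 7 rose and 3 fell (median 0.09), beside 13.8% and 18.0% over all genes. Dntt, which adds bases at antigen receptor joints, had 10.64, 9.82 and 10.18 in MP and 8.29 and 8.44 in HSC (1.85 ± 0.33, adjusted p = 0.000889). The chromatin organiser gene Satb1 had 10.44, 9.15 and 10.10 in MP and 7.28 and 7.43 in HSC (2.54 ± 0.32, adjusted p = 5.75e-05). In Dntt and Satb1 every MP array was above both HSC arrays. Id2, an inhibitor of helix-loop-helix factors, rose by 2.67 ± 0.33 and Cd48, which marks cells that have left the stem cell compartment, by 1.72 ± 0.35. The cytokine receptor gene Flt3 (-0.46 ± 0.33, adjusted p = 0.311), Ikzf1 (0.33 ± 0.27, adjusted p = 0.377), Notch1 (-0.29 ± 0.24, adjusted p = 0.392) and Mef2c (0.86 ± 0.38, adjusted p = 0.103) were not called. Rag1 stayed below 3.2 in all 5 arrays (2.77, 2.67 and 2.53 in MP and 2.62 and 3.16 in HSC). Il7r was at 5.84, 4.97 and 5.17 in MP and 4.12 and 4.54 in HSC (1.00 ± 0.30), and the costimulatory receptor gene Cd27 had -1.17 ± 0.25, a fall. In Il7r every MP array was above both HSC arrays, and in Rag1 the arrays of the groups overlapped. On the lymphoid priming list rises numbered 4 without MP wildtype 1. Flt3 was called without HSC wildtype 1 (-1.10, adjusted p = 0.0201). Mef2c was called without MP wildtype 2 or MP hypomorph 2 (adjusted p between 0.0373 and 0.04998). Il7r was not called without MP wildtype 1 or HSC wildtype 1 (adjusted p between 0.0893 and 0.139). Satb1 was 1.35 and Id2 0.99 with probe sets averaged, both still called.

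Of 26 tested B lineage genes 3 were called higher and 4 lower, beside 13.8% and 18.0% over all genes. In the comparison of MP with B progenitors 0 were called higher (0 at an unadjusted limma p below 0.05) and 25 lower. The B cell factors Ebf1 (-0.01 ± 0.23, adjusted p = 0.986) and Pax5 (-0.28 ± 0.24, adjusted p = 0.409) and the receptor chain gene Cd79a (-0.36 ± 0.23, adjusted p = 0.256) were not called. Their levels in the 5 arrays were between 2.85 and 4.79, against 9.66 and 9.02 (Ebf1), 7.35 and 6.80 (Pax5) and 8.64 and 8.83 (Cd79a) in the B progenitors. Cd79b stood higher, at 7.49, 8.07 and 7.87 in MP and 8.48 and 8.42 in HSC, and was not called (-0.64 ± 0.26, adjusted p = 0.0712). Among 12 tested T and NK cell genes 1 rose, Nkg7, and 3 fell, beside 13.8% and 18.0% over all genes. Of the falls Thy1, a surface protein of many cell types, had 4.65, 5.29 and 4.70 in MP and 7.62 and 7.22 in HSC (-2.54 ± 0.26). Cd3e was at 5.40, 5.40 and 5.25 in MP and 5.41 and 5.42 in HSC (-0.07 ± 0.20, adjusted p = 0.828). In Cd79b, Thy1 and Cd3e every MP array was below both HSC arrays. Of 10 tested genes of macrophages, endothelium and stroma 3 rose and 2 fell, beside 13.8% and 18.0% over all genes. The macrophage surface gene Adgre1 had 6.32, 6.35 and 6.59 in MP and 5.47 and 4.83 in HSC (1.27 ± 0.35). The adhesion gene Vcam1 had 6.86, 6.69 and 6.52 in MP and 4.52 and 3.45 in HSC (2.71 ± 0.36). The complement gene C1qa had 4.10, 4.12 and 3.97 in MP and 5.04 and 4.86 in HSC (-0.89 ± 0.18). In Adgre1 and Vcam1 every MP array was above both HSC arrays, and in C1qa every MP array was below both HSC arrays. The collagen gene Col1a2 had 6.12, 6.67 and 6.20 in MP and 8.10 and 9.36 in HSC (-2.41 ± 0.34). The endothelial gene Pecam1 was not called (-0.11 ± 0.36, adjusted p = 0.843), and Cdh5 and Col1a1 were below the filter level. The part of such cells in the other results was not tested. On the B lineage list rises numbered 0 without MP wildtype 1 or HSC wildtype 1 and 1 without MP wildtype 3, and falls numbered 1 without MP wildtype 3 and 2 without MP wildtype 1 or HSC wildtype 2. Cd79b was called without MP wildtype 2 or HSC hypomorph 3 (adjusted p between 0.0361 and 0.0469). Adgre1 was not called without HSC wildtype 2 (0.95, adjusted p = 0.141). Vcam1 was 0.91 and Col1a2 -1.21 with probe sets averaged, both still called.

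The interferon response was lower in MP, with 21 of 32 tested genes down and 1 up (median -1.07). The GTPase gene Iigp1 had 4.04, 3.90 and 3.46 in MP and 7.92 and 8.10 in HSC (-4.21 ± 0.30, adjusted p = 4.41e-07). Gbp6 had 3.76, 4.17 and 4.49 in MP and 7.77 and 7.62 in HSC (-3.55 ± 0.45). The antiviral gene Ifit1 had 3.89, 3.97 and 3.36 in MP and 6.88 and 7.54 in HSC (-3.47 ± 0.27, adjusted p = 8.83e-07). In each of them the MP arrays were between 3.36 and 4.49 and the HSC arrays above 6.8. The master regulator gene Irf7 stood at 4.49, 4.45 and 4.45 in MP and 5.95 and 6.53 in HSC (-1.78 ± 0.24), and Gbp3 was the only member called higher (1.31 ± 0.33). Leaving out each array in turn left 16 to 23 falls. Gbp3 was not called without HSC wildtype 2 (0.95, adjusted p = 0.112).

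Antigen presentation genes of class II fell with them. Of 13 tested MHC genes 6 fell and none rose (median -0.73; rises, 0 at an unadjusted limma p below 0.05). H2-Aa had 6.91, 7.06 and 6.52 in MP and 10.87 and 10.59 in HSC (-3.90 ± 0.24, adjusted p = 1.13e-07). H2-Eb1 had 5.78, 6.03 and 5.51 in MP and 9.10 and 9.26 in HSC (-3.41 ± 0.29). H2-Ab1 had 7.20, 7.68 and 7.33 in MP and 9.29 and 8.84 in HSC (-1.66 ± 0.24). In H2-Aa, H2-Eb1 and H2-Ab1 every MP array was below both HSC arrays. The invariant chain gene Cd74 had 5.36, 5.54 and 5.12 in MP and 8.32 and 7.30 in HSC (-2.47 ± 0.36). Ciita, the master activator of class II, was close to 4 in all 5 arrays (-0.01 ± 0.20, adjusted p = 0.968). The class I genes H2-K1, at 12.85, 12.73 and 12.88 in MP and 13.48 and 13.44 in HSC, and H2-D1, at 12.03, 12.15 and 12.02 in MP and 12.66 and 12.85 in HSC, were separated between the groups but not called (-0.64 ± 0.32, adjusted p = 0.147; -0.69 ± 0.31, adjusted p = 0.107). In H2-K1 and H2-D1 every MP array was below both HSC arrays. These genes belong to families of near-identical copies, whose probe sets can share signal. H2-K1 was called without HSC hypomorph 3 (-0.64, adjusted p = 0.019), and with probe sets averaged (-0.93, adjusted p = 0.0236). H2-D1 was called without HSC hypomorph 3 (-0.69, adjusted p = 0.0131). H2-Ab1 was -0.99 with probe sets averaged, still called.

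**Figure D3:**
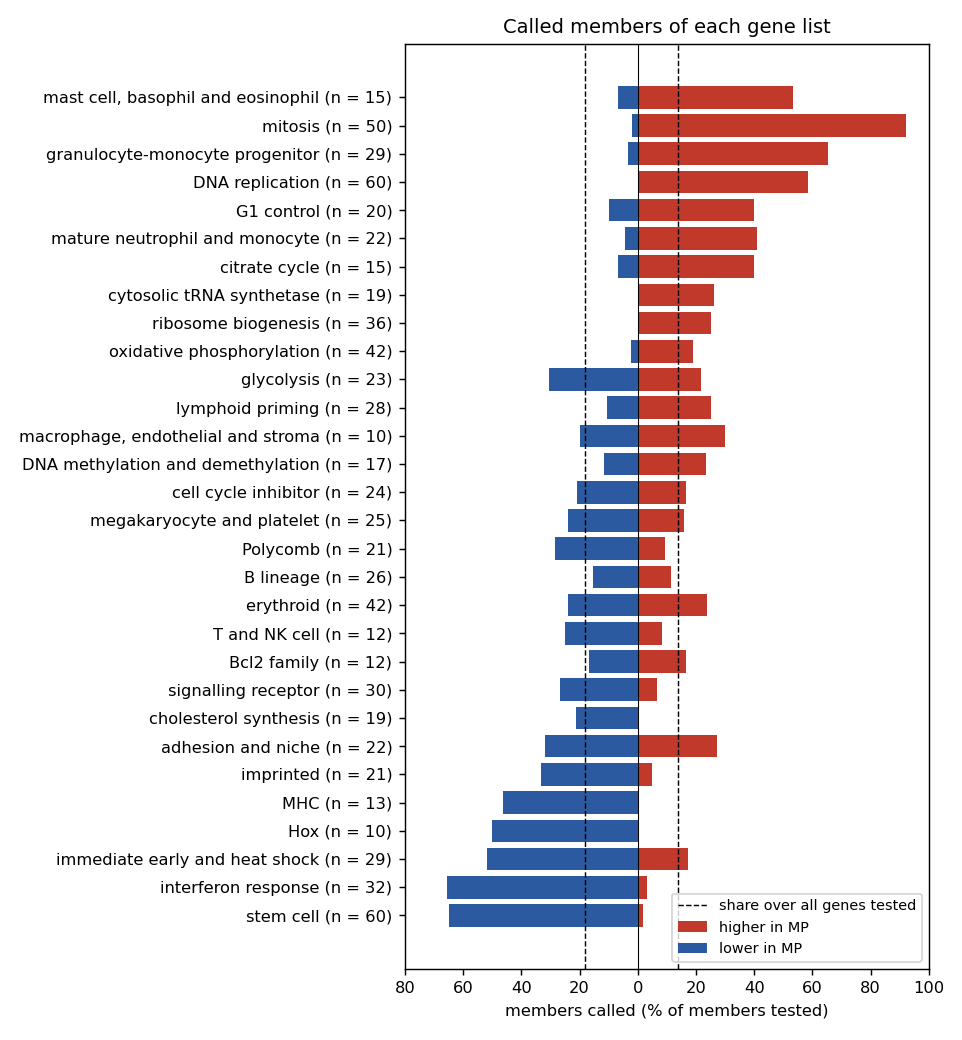
Percent of the tested members of each list called higher (red, right) and lower (blue, left) in MP, in order of the median log2 fold change. The sex-linked and antibody-secreting cell lists are left out. Dashed lines mark the shares over all genes tested, 13.8% higher and 18.0% lower; mitosis genes reach furthest right, with 46 of 50 members, and interferon and stem cell genes furthest left, with 21 of 32 and 39 of 60.

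Genes of cell division were higher in MP. Of 50 tested genes of mitosis 46 rose in MP and 1 fell, with a median of 1.39; the list averaged 9.23 ± 0.08 (SD, n = 3) in MP arrays and 7.84 ± 0.08 (SD, n = 2) in HSC arrays. All 15 tested cyclins and kinases rose, and 31 of 35 genes of the spindle, kinetochore and cytokinesis. Without each array in turn 36 to 46 rises were called.

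Many mitotic genes carry a cell cycle homology region, with the core TTTGAA, close to their start, through which they are repressed in resting cells, often beside CCAAT boxes. Windows from 250 bases before to 50 after the start were taken from RefSeq (build GRCm38.p6) and searched on both strands. TTTGAA was present in 33 of the 43 windows of the mitosis list (76.7%, from 41 of 50 genes), beside 17.9% of all 32851 windows, and CCAAT in 76.7%, beside 37.4% of all windows. Of the 60 windows of the replication list (52 genes) 14 held TTTGGCGC or TTTCCCGC, forms of the E2F site (23.3%), beside 1.56% of all windows. Among the 35 windows of replication genes called higher the share was 17.1%. It was 8.82% in the ribosome biogenesis list and 9.68% in the interferon response list, which was mostly lower in MP. A match is a description of the letters only. To show such matches, the 120 bases before the start of the 4 mitosis genes with the largest rises among those with 1 window and a match there are given here, 5′ to 3′ on the strand of the gene, with TTTGAA or its complement TTCAAA in capitals.
Ncapg, a condensin subunit, chr5:45669805-45669924, plus strand: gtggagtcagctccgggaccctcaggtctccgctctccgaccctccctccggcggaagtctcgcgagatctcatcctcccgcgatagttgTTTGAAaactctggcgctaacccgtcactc
Kif2c, a microtubule-depolymerising kinesin, chr4:117178773-117178892, minus strand: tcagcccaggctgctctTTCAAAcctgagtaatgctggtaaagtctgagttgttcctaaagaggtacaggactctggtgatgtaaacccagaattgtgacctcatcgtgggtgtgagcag
Ube2c, a ubiquitin-conjugating enzyme of mitotic exit, chr2:164769809-164769928, plus strand: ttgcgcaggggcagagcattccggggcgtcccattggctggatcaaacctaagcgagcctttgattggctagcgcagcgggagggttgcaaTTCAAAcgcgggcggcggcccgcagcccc
Mki67, the Ki-67 proliferation antigen, chr7:135716380-135716499, minus strand: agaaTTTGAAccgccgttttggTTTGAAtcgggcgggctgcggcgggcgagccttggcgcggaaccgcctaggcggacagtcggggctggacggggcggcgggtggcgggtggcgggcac

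Mki67 had levels of 11.86, 11.48 and 11.97 in MP and 9.999 and 10.13 in HSC (1.70 ± 0.26, adjusted p = 0.00029). Ncapg stood at 7.81, 7.64 and 8.07 in MP and 5.77 and 5.90 in HSC (2.01 ± 0.22), Kif2c at 9.97, 9.53 and 10.31 in MP and 7.92 and 8.15 in HSC (1.90 ± 0.30) and Ube2c at 8.99, 9.44 and 9.03 in MP and 7.16 and 7.52 in HSC (1.81 ± 0.24). The groups did not overlap in any of the 4 genes, as in 4025 of all 4050 called genes. Among the kinases that drive mitosis, Aurkb, of the chromosomal passenger complex, had 9.50, 9.20 and 9.57 in MP and 7.09 and 6.92 in HSC (2.42 ± 0.24, adjusted p = 8.05e-06). The polo-like kinase gene Plk1 had 8.52, 8.72 and 8.68 in MP and 7.08 and 7.43 in HSC (1.38 ± 0.22). The cyclin gene Ccna2 had 9.84, 9.76 and 9.84 in MP and 8.01 and 8.38 in HSC (1.62 ± 0.20). In Aurkb, Plk1 and Ccna2 every MP array was above both HSC arrays. Cdk1, the kinase that brings cells into mitosis, rose less, with 9.89, 9.97 and 9.79 in MP and 8.40 and 9.25 in HSC (1.06 ± 0.31, adjusted p = 0.0175). The 3 largest rises of the list were those of Ect2, Bub1 and Smc2. Ect2, an exchange factor of cytokinesis, had 9.88, 8.96 and 9.72 in MP and 6.4 and 5.45 in HSC (3.59 ± 0.43). The checkpoint kinase gene Bub1 had 9.49, 8.48 and 9.29 in MP and 6.20 and 5.84 in HSC (3.07 ± 0.35). The condensin gene Smc2 had 11.49, 10.30 and 11.12 in MP and 8.73 and 8.00 in HSC (2.60 ± 0.37). The kinesin gene Kif15 was the only member called lower (-0.67 ± 0.23), from levels between 4.24 and 5.34 in all 5 arrays. Cdk1 was not called without HSC wildtype 1 (0.63, adjusted p = 0.197). Kif15 was not called without MP wildtype 1 or 3, HSC wildtype 1, MP hypomorph 3 or HSC hypomorph 2 (adjusted p between 0.0528 and 0.349), with -0.35 without HSC wildtype 1. Kif2c was 0.90, Bub1 2.03 and Smc2 1.43 with probe sets averaged, all still called.

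DNA replication genes rose as well: 35 of 60 tested were called higher in MP and none lower (0 at an unadjusted limma p below 0.05), with a median of 0.86. Of 22 genes of origin licensing and firing 15 rose, of 24 polymerase, clamp and loader genes 12, and of 14 genes of nucleotide supply 8. Of the helicase subunits, Mcm4 had 12.09, 11.95 and 11.97 in MP and 9.65 and 7.79 in HSC (3.28 ± 0.48, adjusted p = 0.000221). Mcm2 had 11.81, 11.96 and 11.88 in MP and 10.09 and 9.70 in HSC (1.99 ± 0.23, adjusted p = 3.35e-05). Mcm5 had 12.79, 12.74 and 12.83 in MP and 12.03 and 11.88 in HSC (0.84 ± 0.17), and Mcm6 was not called (1.09 ± 0.44, adjusted p = 0.0743). In Mcm4, Mcm2 and Mcm5 every MP array was above both HSC arrays. The loading factor gene Cdc6 stood at 10.11, 9.89 and 10.003 in MP and 7.84 and 6.97 in HSC (2.60 ± 0.26, adjusted p = 9.64e-06). Cdt1, which acts with it, stood at 12.18, 12.45 and 12.43 in MP and 11.34 and 11.96 in HSC (0.71 ± 0.21, adjusted p = 0.0226). In Cdc6 and Cdt1 every MP array was above both HSC arrays. Cdc45 had 1.64 ± 0.33, Orc1 1.71 ± 0.32, and the primase genes Prim1 and Prim2 0.91 ± 0.20 and 1.59 ± 0.24. The sliding clamp gene Pcna had 12.80, 12.46 and 12.64 in MP and 11.49 and 11.81 in HSC (0.98 ± 0.33, adjusted p = 0.0346). The ribonucleotide reductase subunit Rrm2, which limits the supply of deoxynucleotides, had 11.63, 11.08 and 11.68 in MP and 9.15 and 8.90 in HSC (2.44 ± 0.25, adjusted p = 1.01e-05) and its partner Rrm1 1.20 ± 0.23, while the thymidylate synthase gene Tyms was not called (0.27 ± 0.32, adjusted p = 0.562). In Pcna and Rrm2 every MP array was above both HSC arrays. On the DNA replication list rises numbered 21 without HSC wildtype 2 and 23 without MP wildtype 3. The median stayed between 0.72 and 0.86. Mcm6 was called without HSC hypomorph 1 or 3 (adjusted p between 0.0102 and 0.0417), and with probe sets averaged (1.38, adjusted p = 0.000205). Cdt1 was not called without MP wildtype 2 or 3 or HSC wildtype 1 (adjusted p between 0.0507 and 0.23), with 0.40 without HSC wildtype 1. Pcna was not called without MP wildtype 1 or 3 or HSC wildtype 1 or 2 (adjusted p between 0.0747 and 0.169). Cdc45 was 0.82, Prim2 0.90 and Rrm1 0.61 with probe sets averaged, all still called.

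The control of G1, the phase in which a cell decides whether to divide, was less uniform: 8 of 20 tested genes rose and 2 fell (median 0.71). Ccne2, a cyclin of the entry into DNA synthesis, rose 16.9-fold, with 8.32, 7.44 and 8.29 in MP and 4.34 and 3.54 in HSC (4.07 ± 0.33, adjusted p = 1.19e-06), whereas its relative Ccne1 was at 0.63 ± 0.22 (adjusted p = 0.0418). The kinase gene Cdk6, which sets how fast stem cells leave quiescence, had 12.78, 12.77 and 12.51 in MP and 10.76 and 11.41 in HSC (1.60 ± 0.28, adjusted p = 0.000793). In Ccne2 and Cdk6 every MP array was above both HSC arrays. E2f8 rose by 2.52 ± 0.23, Skp2, which targets inhibitors for destruction, by 2.00 ± 0.31, and the retinoblastoma gene Rb1 by 1.24 ± 0.23. None of the D cyclins was called higher: Ccnd2 was called lower, with 11.07, 11.64 and 11.27 in MP and 11.97 and 12.49 in HSC (-0.90 ± 0.24, adjusted p = 0.0123), and Ccnd1 (-0.93 ± 0.47, adjusted p = 0.151) and Ccnd3 (-0.43 ± 0.33, adjusted p = 0.347) were not called. Myc was not called (0.79 ± 0.31, adjusted p = 0.0658). Its relative Mycn fell, with 8.68, 8.00 and 8.00 in MP and 10.03 and 10.003 in HSC (-1.79 ± 0.45). On the G1 control list falls numbered 1 without MP wildtype 1. Ccne1 was not called without MP wildtype 1, 2 or 3, HSC wildtype 2 or MP hypomorph 1, 2 or 3 (adjusted p between 0.0507 and 0.323), with 0.38 without HSC wildtype 2, nor with the second normalization (0.56, adjusted p = 0.0759), nor with probe sets averaged (0.44, adjusted p = 0.14). Ccnd2 was not called without MP wildtype 1 or HSC wildtype 2 (adjusted p between 0.0559 and 0.139), nor with probe sets averaged (-0.19, adjusted p = 0.437). Ccnd1 was called without HSC wildtype 2 (-1.91, adjusted p = 0.00762), and with probe sets averaged (-1.05, adjusted p = 0.00795). Ccnd3 was called with probe sets averaged (-0.68, adjusted p = 0.0165). Myc was called without HSC wildtype 2 or HSC hypomorph 3 (adjusted p between 0.0236 and 0.0366). E2f8 was 1.24 and Mycn -0.55 with probe sets averaged, both still called.

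Of 24 tested cell cycle inhibitors 4 rose and 5 fell (median -0.07, or 0.07 with arrays centred), beside 13.8% and 18.0% over all genes. The fall of Cdkn1c was thus not shared by the list. Cdkn1b, which encodes p27, was higher in MP, with 7.74, 6.87 and 7.49 in MP and 6.34 and 6.05 in HSC (1.17 ± 0.31, adjusted p = 0.0108). Btg1, an antiproliferative gene, had 10.66, 10.74 and 10.33 in MP and 7.81 and 7.57 in HSC (2.89 ± 0.47), and Ccng1, a p53 target, rose by 1.30 ± 0.24. In Cdkn1b and Btg1 every MP array was above both HSC arrays. Cdkn2d and Sesn3 fell, with -1.13 ± 0.30 and -1.07 ± 0.23. Cdkn1a, which encodes p21, was not called (0.30 ± 0.24, adjusted p = 0.367), and Cdkn2c was called at 0.87 ± 0.30, adjusted p = 0.0427. On the cell cycle inhibitor list rises numbered 2 without HSC wildtype 2, and falls numbered 3 without HSC wildtype 1. Cdkn1b was not called without HSC wildtype 2 (1.03, adjusted p = 0.0878). Cdkn2d was not called without HSC wildtype 1 (-0.77, adjusted p = 0.123). Cdkn2c was not called without MP wildtype 1 or 3, HSC wildtype 2, MP hypomorph 1 or 3 or HSC hypomorph 2 (adjusted p between 0.0526 and 0.5), with 1.42 without HSC wildtype 1 and 0.32 without HSC wildtype 2, nor with the second normalization (0.80, adjusted p = 0.0711). Cdkn1b was 0.60 and Btg1 0.72 with probe sets averaged, both still called.

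**Figure D4:**
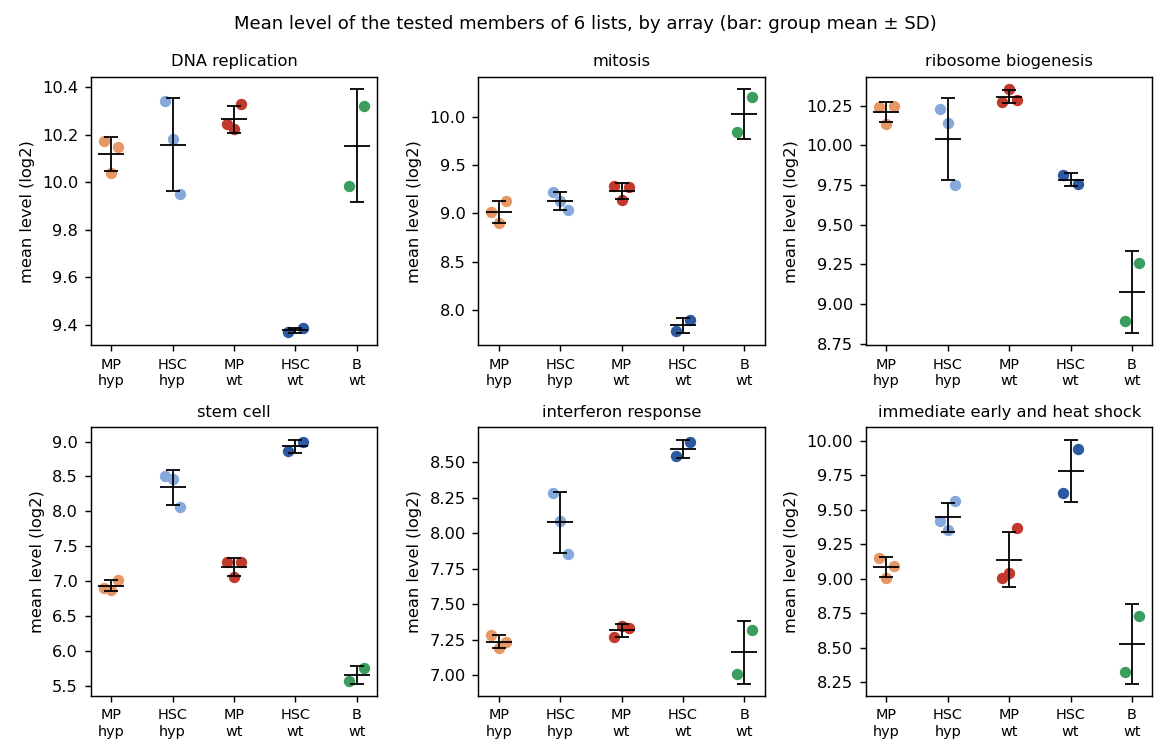
Mean level (vertical axis, log2 intensity) of the tested members of 6 lists, with a point for each of the 13 arrays and a bar for the group mean ± SD; hyp is hypomorph and wt is wildtype. In replication and mitosis genes the wildtype HSC arrays lie below those of all other groups, and in stem cell and interferon genes they lie above them.

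Genes of growth and protein synthesis rose in part. Called members, all of them rises, made up 25% of the ribosome biogenesis list and 26.3% of the cytosolic tRNA synthetase list. The shares over all genes were 13.8% rises and 18.0% falls, together 31.8%. Of 36 tested genes of ribosome biogenesis 9 rose and none fell (median 0.44; falls, 1 at an unadjusted limma p below 0.05), and of 19 cytosolic tRNA synthetases 5 rose and none fell (median 0.48; falls, 1 at an unadjusted limma p below 0.05). Rrs1, an assembly factor of the large ribosomal subunit, had 12.05, 11.95 and 11.88 in MP and 10.18 and 8.84 in HSC (2.44 ± 0.39, adjusted p = 0.000395). The nucleolar helicase gene Ddx21 had 10.02, 9.26 and 9.95 in MP and 8.25 and 6.94 in HSC (2.15 ± 0.38). Nolc1 had 9.57, 9.96 and 9.75 in MP and 8.12 and 8.40 in HSC (1.5 ± 0.26). In Rrs1, Ddx21 and Nolc1 every MP array was above both HSC arrays. Polr1b, of RNA polymerase I, rose by 1.15 ± 0.34, and its partner Polr1a was not called (-0.02 ± 0.31, adjusted p = 0.975). Of the abundant nucleolar genes Npm1 was called at 0.58 ± 0.20, adjusted p = 0.0447, and Ncl (0.66 ± 0.32, adjusted p = 0.129), Fbl (-0.09 ± 0.25, adjusted p = 0.824) and Nop56 (0.28 ± 0.19, adjusted p = 0.289) were not called. Among the synthetases Iars had 10.54, 10.25 and 10.32 in MP and 8.97 and 9.15 in HSC (1.31 ± 0.20). Farsb had 12.15, 11.95 and 12.18 in MP and 10.87 and 10.03 in HSC (1.64 ± 0.27), and Mars1 was called at 0.74 ± 0.26, adjusted p = 0.045. In Iars and Farsb every MP array was above both HSC arrays. On the ribosome biogenesis list rises numbered 15 without HSC hypomorph 3. On the cytosolic tRNA synthetase list rises numbered 3 without MP wildtype 1 or 3 or HSC wildtype 1. Polr1b was not called without MP wildtype 1 or 3 or HSC wildtype 1 (adjusted p between 0.057 and 0.148). Npm1 was not called without MP wildtype 1 or 3, HSC wildtype 2, MP hypomorph 1, 2 or 3 or HSC hypomorph 2 (adjusted p between 0.0524 and 0.243), nor with probe sets averaged (0.64, adjusted p = 0.0594). Ncl was called without HSC hypomorph 3 (0.66, adjusted p = 0.0461), and with probe sets averaged (0.76, adjusted p = 0.00567). Farsb was not called with probe sets averaged (0.63, adjusted p = 0.05). Mars1 was not called without MP wildtype 1, 2 or 3, HSC wildtype 1 or MP hypomorph 1, 2 or 3 (adjusted p between 0.0577 and 0.303), with 0.46 without HSC wildtype 1. Ddx21 was 1.43 and Nolc1 0.99 with probe sets averaged, both still called.

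In energy metabolism 21.4% of the oxidative phosphorylation list and 46.7% of the citrate cycle list were called, beside 31.8% over all genes. Of 42 tested genes of oxidative phosphorylation 8 rose and 1 fell (median 0.24), beside 13.8% and 18.0% over all genes. Cycs, the cytochrome c gene, had 12.70, 13.08 and 12.79 in MP and 10.98 and 9.70 in HSC (2.52 ± 0.34, adjusted p = 0.000118). Cox5a had 12.81, 12.95 and 12.81 in MP and 11.95 and 11.02 in HSC (1.37 ± 0.26, adjusted p = 0.00128), with HSC wildtype 2 the lower of the HSC arrays in both. In Cycs and Cox5a every MP array was above both HSC arrays. The respiratory genes Sdha (0.46 ± 0.34, adjusted p = 0.321), Uqcrc1 (0.08 ± 0.37, adjusted p = 0.883) and Atp5a1 (0.18 ± 0.20, adjusted p = 0.513) were not called, and Ndufb9 was the member called lower (-0.76 ± 0.25). Of 15 citrate cycle genes 6 rose and 1 fell (median 0.51), beside the same shares over all genes. The malate dehydrogenase gene Mdh2 had 13.01, 13.20 and 13.04 in MP and 12.04 and 12.12 in HSC (1.00 ± 0.21, adjusted p = 0.00274). Idh3a had 11.17, 10.47 and 10.90 in MP and 9.35 and 8.76 in HSC (1.79 ± 0.35), and the citrate synthase gene Cs 0.61 ± 0.20. In Mdh2 and Idh3a every MP array was above both HSC arrays. Idh3b, another subunit of the Idh3a enzyme, was the member called lower (-0.79 ± 0.22). On the oxidative phosphorylation list rises numbered 5 without HSC wildtype 2. On the citrate cycle list rises numbered 3 without MP wildtype 3 or HSC wildtype 1. Cox5a was 0.90 without HSC wildtype 2, still called. Ndufb9 was not called without MP wildtype 1 or 3 or HSC wildtype 1 or 2 (adjusted p between 0.0933 and 0.138), nor with probe sets averaged (-0.40, adjusted p = 0.153). Cs was not called without MP wildtype 1 or 3 or HSC wildtype 1 (adjusted p between 0.0925 and 0.194). Idh3b was not called without MP wildtype 1 or HSC wildtype 2 (adjusted p between 0.0648 and 0.119). Idh3a was 0.84 and Idh3b -0.45 with probe sets averaged, both still called.

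Glycolysis genes differed by isoform, with 5 of 23 tested members higher and 7 lower (median 0.11), beside 13.8% and 18.0% over all genes. Lower in MP was the aldolase C gene Aldoc, with 5.40, 5.60 and 4.61 in MP and 8.65 and 9.33 in HSC (-3.79 ± 0.30, adjusted p = 1.18e-06). The lactate dehydrogenase B gene Ldhb had 9.31, 9.60 and 9.46 in MP and 11.17 and 11.59 in HSC (-1.92 ± 0.27). The glucose transporter gene Slc2a3 had 9.48, 9.56 and 9.54 in MP and 11.29 and 11.56 in HSC (-1.90 ± 0.21), and its relative Slc2a1 fell as well (-1.11 ± 0.31). In Aldoc, Ldhb and Slc2a3 every MP array was below both HSC arrays. Higher were Pgam1, with 12.15, 12.23 and 12.07 in MP and 10.48 and 10.54 in HSC (1.64 ± 0.22, adjusted p = 9.22e-05), and the hexokinase genes Hk2 (0.85 ± 0.24) and Hk3 (1.71 ± 0.39). Pdk1, which keeps pyruvate out of mitochondria and is associated with the metabolism of HSC, had 11.20, 10.77 and 11.001 in MP and 9.02 and 7.75 in HSC (2.61 ± 0.55, adjusted p = 0.00268). In Pgam1 and Pdk1 every MP array was above both HSC arrays. Ldha (0.53 ± 0.25, adjusted p = 0.124), Pkm (0.30 ± 0.32, adjusted p = 0.505) and Hk1 (0.16 ± 0.44, adjusted p = 0.803) were not called. In cholesterol synthesis 4 of 19 genes fell, beside 18.0% over all genes, and none rose (rises, 2 at an unadjusted limma p below 0.05). The list median was -0.27, or 0.16 without HSC wildtype 1. The squalene synthase gene Fdft1 was among the falls (-1.39 ± 0.26). Hmgcs1 (0.18 ± 0.24, adjusted p = 0.611) and Sqle (0.20 ± 0.49, adjusted p = 0.793) were not called. On the glycolysis list rises numbered 2 without HSC wildtype 1 and 3 without MP wildtype 1 or HSC wildtype 2, and falls numbered 3 without MP wildtype 1 or 3 or HSC wildtype 2. Slc2a1 was not called without MP wildtype 1 or 3 or HSC wildtype 1 or 2 (adjusted p between 0.0526 and 0.0705). Hk2 was not called without MP wildtype 1 or HSC wildtype 1 or 2 (adjusted p between 0.052 and 0.0732). Hk3 was not called without HSC wildtype 1 (1.21, adjusted p = 0.0694). Pdk1 was not called without HSC wildtype 2 (1.97, adjusted p = 0.0527), nor with probe sets averaged (0.63, adjusted p = 0.0622). Hmgcs1 was called with probe sets averaged (0.79, adjusted p = 0.029). Aldoc was -2.25, Slc2a3 -1.06 and Fdft1 -0.64 with probe sets averaged, all still called.

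Immediate early genes, which are transcribed within minutes of a stimulus or of cell handling, were lower in MP: 14 of 20 tested fell and none rose (median -1.84; rises, 1 at an unadjusted limma p below 0.05). Egr1, which also restrains stem cell division, had 8.53, 8.15 and 8.77 in MP and 11.99 and 12.73 in HSC (-3.88 ± 0.27, adjusted p = 3.45e-07). The AP-1 gene Jun had 10.08, 10.16 and 10.62 in MP and 12.20 and 12.69 in HSC (-2.15 ± 0.42). Junb, another AP-1 gene, had 6.33, 6.79 and 6.54 in MP and 8.27 and 9.32 in HSC (-2.24 ± 0.27). In Egr1, Jun and Junb every MP array was below both HSC arrays. Fosb had 6.20, 5.93 and 7.02 in MP and 8.58 and 9.21 in HSC (-2.51 ± 0.56). Zfp36, which destabilises messages, stood at 8.25, 7.82 and 8.31 in MP and 10.35 and 11.14 in HSC (-2.62 ± 0.26). The phosphatase gene Dusp1 stood at 9.81, 9.30 and 10.21 in MP and 11.58 and 12.64 in HSC (-2.34 ± 0.34). Fos itself was high in all 5 arrays and not called, with 12.25, 11.53 and 12.94 in MP and 12.96 and 13.43 in HSC (-0.96 ± 0.84, adjusted p = 0.419). Heat shock genes were mostly higher, with 5 of 9 called higher and 1 lower (median 0.76). The inducible chaperone gene Hspa1a spread widely within both groups, with 8.81, 11.06 and 11.58 in MP and 5.03 and 7.33 in HSC (4.31 ± 0.96, adjusted p = 0.00412). Its near-identical copy Hspa1b, which can share signal with it, had 10.21, 11.84 and 12.12 in MP and 6.34 and 7.53 in HSC (4.46 ± 0.96). Hsp90aa1 had 13.09, 12.78 and 13.06 in MP and 11.46 and 11.10 in HSC (1.70 ± 0.21), and the constitutive chaperone gene Hspa8 was not called (0.23 ± 0.18, adjusted p = 0.341). HSC wildtype 2 was the higher HSC array in Egr1, Jun, Junb and Fosb, and the sort and handling times of the arrays are not given in the sources used here; their part in these and the other results was not tested. Fosb was not called without HSC wildtype 2 (-2.19, adjusted p = 0.0504). Hspa1a was not called without HSC wildtype 1 (3.16, adjusted p = 0.0618). Hspa8 was called with probe sets averaged (1.00, adjusted p = 0.00081). Hsp90aa1 was 0.79 with probe sets averaged, still called.

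Adhesion and niche genes moved both ways, with 6 of 22 higher and 7 lower, beside 13.8% and 18.0% over all genes. Their median was -0.30, or 0.08 without HSC wildtype 2. The chemokine receptor gene Cxcr4, which holds cells in the marrow, had 8.09, 7.80 and 8.08 in MP and 7.32 and 5.73 in HSC (1.46 ± 0.36, adjusted p = 0.00692). The integrin gene Itgal had 9.65, 9.04 and 10.02 in MP and 7.14 and 6.89 in HSC (2.55 ± 0.30). The semaphorin receptor gene Nrp1 had 7.05, 7.34 and 7.78 in MP and 4.98 and 3.34 in HSC (3.23 ± 0.45). In Cxcr4, Itgal and Nrp1 every MP array was above both HSC arrays. Cd44, a receptor for hyaluronan, was called at 1.37 ± 0.28, adjusted p = 0.00238. Robo4, a guidance receptor gene of HSC and endothelium, was lower, with 5.01, 4.94 and 5.28 in MP and 8.29 and 8.52 in HSC (-3.33 ± 0.36). Itga4 (0.58 ± 0.31, adjusted p = 0.177), Selplg (-0.25 ± 0.24, adjusted p = 0.466) and Angpt1 (-0.49 ± 0.38, adjusted p = 0.352) were not called. Cxcr4 was not called without HSC wildtype 2 (0.67, adjusted p = 0.12), with 2.25 without HSC wildtype 1. Cd44 was not called with the second normalization (0.46, adjusted p = 0.216). Itga4 was called without HSC wildtype 2 (1.09, adjusted p = 0.0364). Itgal was 1.42, Nrp1 1.84 and Cd44 0.58 with probe sets averaged, all still called.

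Of 30 tested genes of signalling receptors and their modulators 2 rose and 8 fell (median -0.25), beside 13.8% and 18.0% over all genes. The growth factor receptor gene Fgfr1 had 4.27, 4.67 and 4.52 in MP and 6.96 and 6.10 in HSC (-2.04 ± 0.26, adjusted p = 7.17e-05). The Wnt receptor gene Fzd4 had 3.94, 4.39 and 4.41 in MP and 6.13 and 6.16 in HSC (-1.90 ± 0.26). Smad6, an inhibitor of BMP signals, had 4.71, 4.94 and 4.71 in MP and 6.30 and 6.53 in HSC (-1.63 ± 0.30). In all 3 the MP arrays were below 5. Tgfbr1, of the TGF-beta receptor, was higher, with 9.22, 8.74 and 9.24 in MP and 7.91 and 7.92 in HSC (1.16 ± 0.23), and its partner Tgfbr2 was not called (-0.59 ± 0.30, adjusted p = 0.15), nor were Smad7 (-0.21 ± 0.23, adjusted p = 0.521) and Tcf7l2 (-0.43 ± 0.38, adjusted p = 0.422). On the signalling receptor list rises numbered 1 without MP wildtype 1 or 3 or HSC wildtype 1 or 2, and falls numbered 3 without HSC wildtype 2. Tgfbr2 was called without HSC wildtype 1 (-1.03, adjusted p = 0.0352). Tgfbr1 was 0.39 with probe sets averaged, still called.

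In the Bcl2 family, which sets the threshold of cell death, 2 of 12 tested genes rose and 2 fell, beside 13.8% and 18.0% over all genes. The survival genes differed in direction: Bcl2 had 9.85, 9.14 and 9.75 in MP and 8.39 and 8.68 in HSC (1.05 ± 0.27, adjusted p = 0.00998). Mcl1, on which HSC survival depends, had 11.02, 11.19 and 11.18 in MP and 12.58 and 12.34 in HSC (-1.33 ± 0.20, adjusted p = 0.0003). Bcl2l1 had 7.89, 8.15 and 7.68 in MP and 8.78 and 8.82 in HSC (-0.89 ± 0.22). In Bcl2 every MP array was above both HSC arrays, and in Mcl1 and Bcl2l1 every MP array was below both HSC arrays. Among death-promoting members Bid rose by 1.30 ± 0.29 and Bcl2l11 was not called (0.29 ± 0.40, adjusted p = 0.624). On the Bcl2 family list rises numbered 0 without HSC wildtype 1, and falls numbered 4 without HSC hypomorph 3. Bcl2 was not called without HSC wildtype 1 (0.90, adjusted p = 0.0699). Bcl2l1 was not called with probe sets averaged (-0.46, adjusted p = 0.059). Bid was not called without HSC wildtype 1 (0.94, adjusted p = 0.0565). Mcl1 was -0.70 with probe sets averaged, still called.

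The DNA methyltransferase genes, central to the series, were not called between wildtype MP and HSC. Dnmt1 had 11.41, 11.30 and 11.73 in MP and 11.80 and 11.58 in HSC (-0.21 ± 0.24, adjusted p = 0.544). Dnmt3a had 8.28, 7.93 and 8.25 in MP and 8.18 and 8.22 in HSC (-0.05 ± 0.20, adjusted p = 0.877). Dnmt3b had 10.69, 10.53 and 10.65 in MP and 10.86 and 10.81 in HSC (-0.21 ± 0.19, adjusted p = 0.423). In Dnmt3b every MP array was below both HSC arrays, and in Dnmt1 and Dnmt3a the arrays of the groups overlapped. One of 2 further probe sets of Dnmt1 and all 4 of Dnmt3a had the other sign. Uhrf1, which brings Dnmt1 to replicating DNA, rose, with 10.82, 10.40 and 10.89 in MP and 9.55 and 7.93 in HSC (1.97 ± 0.34, adjusted p = 0.000793). The chromatin remodeller gene Hells had 10.27, 9.93 and 10.40 in MP and 8.19 and 7.83 in HSC (2.19 ± 0.22, adjusted p = 1.03e-05), and the methyl-CpG binding protein gene Zbtb33 rose too (1.17 ± 0.25). In Uhrf1 and Hells every MP array was above both HSC arrays. Zbtb4 (-1.44 ± 0.28) and Apobec1 (-0.93 ± 0.19) fell. Over the 17 tested genes of the methylation machinery 4 rose and 2 fell, beside 13.8% and 18.0% over all genes. The demethylation genes Tet1 (-0.03 ± 0.37, adjusted p = 0.955) and Tet2 (0.48 ± 0.44, adjusted p = 0.433) were not called. Of 21 Polycomb genes 2 rose and 6 fell, beside the same shares over all genes. The histone methyltransferase genes went opposite ways: Ezh2, of dividing cells, had 11.49, 10.75 and 11.21 in MP and 9.58 and 9.69 in HSC (1.52 ± 0.24, adjusted p = 0.000389). Ezh1, of resting cells, had 8.49, 8.18 and 8.56 in MP and 9.25 and 9.63 in HSC (-1.03 ± 0.21, adjusted p = 0.00217). In Ezh2 every MP array was above both HSC arrays, and in Ezh1 every MP array was below both HSC arrays. Suz12, a core subunit of the same complex, rose by 1.06 ± 0.27, while Cbx7 (-1.85 ± 0.35), Cbx6 (-1.34 ± 0.19) and Phc1 (-0.96 ± 0.26) fell, and Bmi1 (0.75 ± 0.30, adjusted p = 0.0734) and Cbx2 (-0.28 ± 0.27, adjusted p = 0.463) were not called. On the Polycomb list rises numbered 4 without HSC hypomorph 3. Uhrf1 was 1.16 without HSC wildtype 2, still called. Bmi1 was called without HSC wildtype 1 (1.27, adjusted p = 0.00926). Phc1 was not called without HSC wildtype 2 (-0.71, adjusted p = 0.127). Zbtb33 was 0.75, Ezh1 -0.41 and Cbx7 -0.50 with probe sets averaged, all still called.

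Wildtype B progenitors, a further kind of dividing progenitor, gave a second set of values for the same MP arrays, so the comparisons share the MP arrays and are set side by side without a test of likeness. Between MP and B progenitors 35.9% of genes were called, 24.7% higher and 11.2% lower in MP. The replication list had 14 rises and 4 falls there, with a median of -0.02, beside 35 and 0 against HSC. The mitosis list had 1 rise and 27 falls against B progenitors, with a median of -0.71, beside 46 and 1 against HSC. Mki67 was at 11.86, 11.48 and 11.97 in MP arrays and 12.98 and 13.26 in B progenitor arrays (-1.35 ± 0.26, adjusted p = 0.000978), and Rrm2 at 11.63, 11.08 and 11.68 in MP arrays and 13.33 and 13.38 in B progenitor arrays (-1.89 ± 0.25). Ribosome biogenesis genes had 30 rises among 36 against B progenitors (median 1.11), beside 9 against HSC. Of the granulocyte-monocyte list 24 of 29 were higher in MP than in B progenitors and none lower (median 2.70; falls, 0 at an unadjusted limma p below 0.05). Irf8 had 11.35, 11.64 and 11.43 in MP arrays and 11.38 and 11.51 in B progenitor arrays (0.04 ± 0.35, adjusted p = 0.952). Of 60 stem cell genes 31 were higher and 7 lower in MP than in B progenitors (median 1.04), among them Mecom (2.64 ± 0.32), Procr (2.79 ± 0.41) and Meis1 (3.76 ± 0.33).

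The comparison of MP with HSC was available again in the hypomorph arrays, which share no array with the wildtype comparison. There 533 genes rose and 952 fell in MP (11.7% called, 4.18% higher and 7.47% lower). Across the 12745 genes the log2 fold changes of the 2 genotypes correlated at r = 0.62, as a description over genes normalized together. Of the 1757 genes called higher in the wildtype 71.6% had the same sign in the hypomorph and 357 were called the same way, with a median of 0.25 in the hypomorph and 1.30 in the wildtype. Of the 2293 called lower 84.6% had the same sign and 677 were called, with medians of -0.44 in the hypomorph and -1.12 in the wildtype. These genes were chosen on the wildtype arrays, which favours larger values there. Conversely 67.0% of the hypomorph rises and 71.1% of its falls were also called in the wildtype.

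**Figure D5:**
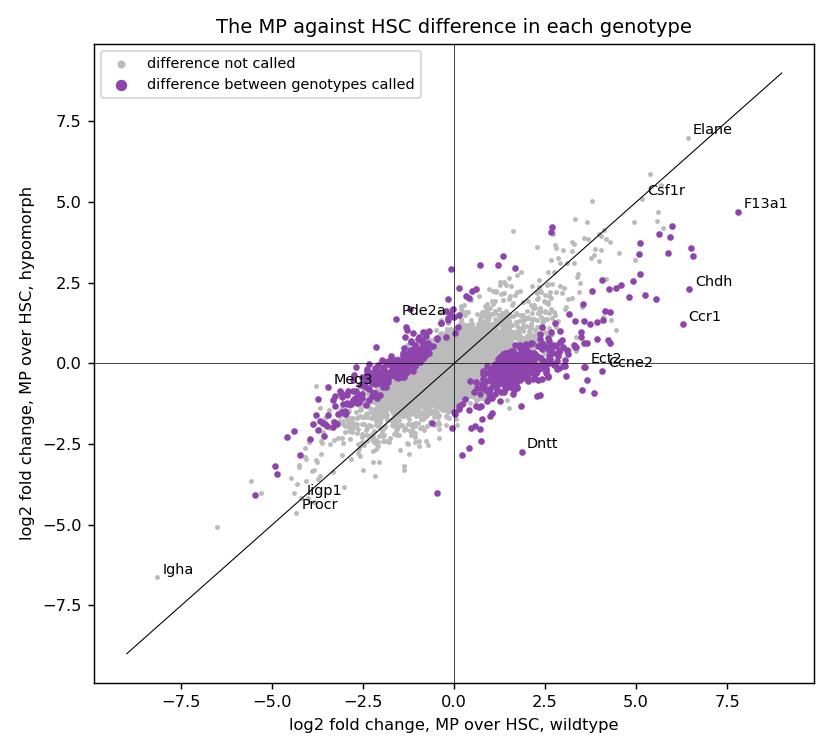
Log2 fold change of MP over HSC in the hypomorph arrays (vertical axis) against that in the wildtype arrays (horizontal axis), with each of 12745 genes as a point and the diagonal marking equal values. The 717 genes whose difference between the genotypes was called are purple; Elane and Csf1r lie near the diagonal, and Ccne2 and Ect2 lie near 0 in the hypomorph.

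The difference of the MP against HSC contrast between the genotypes, hypomorph minus wildtype, was called in 717 genes (5.63%), 300 of them higher (2.35%) and 417 lower (3.27%). Of 29 granulocyte-monocyte genes 17 were called higher in hypomorph MP and 19 in wildtype MP, and the difference between genotypes was called in 4 (1 above 0 and 3 below). Ctsg had 3.32 in the hypomorph and 6.56 in the wildtype (-3.24 ± 0.52, adjusted p = 0.00443). Ms4a3 had 3.59 in the hypomorph and 6.52 in the wildtype (-2.93 ± 0.56). Among members not called different, Elane had 6.98 in the hypomorph and 6.42 in the wildtype (difference 0.57 ± 0.65, adjusted p = 0.625), and Csf1r had 5.10 in the hypomorph and 5.16 in the wildtype (-0.06 ± 0.32, adjusted p = 0.922). In stem cell genes 38 of 60 fell in the hypomorph and 39 in the wildtype, and the difference was called in 8 (6 above 0 and 2 below). Egr1, which is also on that list, had -1.89 in the hypomorph and -3.88 in the wildtype (1.99 ± 0.36, adjusted p = 0.00908), and Procr had -4.63 in the hypomorph and -4.35 in the wildtype (-0.29 ± 0.55, adjusted p = 0.782). Cell cycle genes differed between the genotypes. None of the 60 replication and 50 mitosis genes was called higher in hypomorph MP than in hypomorph HSC, and 1 of each was called lower, with medians of -0.04 and -0.09, and the rises were 1 at an unadjusted limma p below 0.05 for replication and 2 at an unadjusted limma p below 0.05 for mitosis. The difference itself was called, toward a smaller contrast in the hypomorph, in 13 replication and 30 mitosis genes, with 0 the other way (0 at an unadjusted limma p below 0.05 for replication and 1 at an unadjusted limma p below 0.05 for mitosis). Ccne2 had -0.23 in the hypomorph and 4.07 in the wildtype (-4.30 ± 0.44, adjusted p = 0.000321), from levels of 7.53, 7.08 and 7.83 in hypomorph MP and 7.50, 8.02 and 7.61 in hypomorph HSC. Aurkb had -0.47 in the hypomorph and 2.42 in the wildtype (-2.89 ± 0.32, adjusted p = 0.000583). Mast cell genes had 6 called differences among 15, all toward a smaller contrast, and Fcer1a had 0.63 in the hypomorph and 4.29 in the wildtype (-3.66 ± 0.45, adjusted p = 0.00127).

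By the size of the difference between genotypes the first genes were Ccr1, at 1.21 in the hypomorph and 6.29 in the wildtype (-5.08 ± 0.36, adjusted p = 2.13e-05), and Depdc1a, at -0.92 in the hypomorph and 3.83 in the wildtype (-4.75 ± 0.70). The cohesin acetyltransferase gene Esco2 stood at -0.83 in the hypomorph and 3.52 in the wildtype (-4.36 ± 0.61). Dntt was lower in MP than in HSC in the hypomorph (-2.74, levels of 6.30, 5.87 and 5.95 in MP and 9.34, 8.95 and 8.06 in HSC) and higher in the wildtype (1.85), with a difference of -4.59 ± 0.44 (adjusted p = 0.000221). In the other direction Pde2a, a cyclic nucleotide phosphodiesterase gene, was higher in hypomorph MP (1.38) and lower in wildtype MP (-1.59), a difference of 2.97 ± 0.35 (adjusted p = 0.000888). The transcript BC018473 had 2.92 in the hypomorph and -0.08 in the wildtype (2.99 ± 0.38), and the selenoprotein gene Selenom had 1.67 in the hypomorph and -1.22 in the wildtype (2.89 ± 0.60). In the wildtype contrast neither was called (adjusted p = 0.858 for BC018473 and 0.0524 for Selenom). There Selenom was called without MP wildtype 2, B progenitor wildtype 1 or 2, MP hypomorph 3 or HSC hypomorph 1 or 3 (adjusted p between 0.0279 and 0.0485), and with probe sets averaged (-1.22, adjusted p = 0.0491). Meg3 had -0.75 in the hypomorph and -3.47 in the wildtype (2.72 ± 0.31, adjusted p = 0.000735). The number of called differences moved between 241 and 1444 when each array was left out in turn, so single genes near the threshold depend on the arrays in the fit. Esco2 was 2.03 and Pde2a -1.02 in the wildtype contrast with probe sets averaged, both still called.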

How the data were processed

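The values are log2 intensities of 45101 probe sets, normalized by the authors with RMA per the submitters' processing notes. The log base was inferred from their range, and no RMA version was found in the labels. The same HSC and MP arrays were also deposited in a second normalization, used as an alternative. Of the probe sets, 34958 have 1 gene symbol in the platform annotation, 932 have several and 9211 have none. A gene was represented by its probe set of highest mean, and tested where at least 2 of 13 arrays reached the median of all values (4.64). One limma model (limma 3.58.1, R 4.3.3) was fitted to the 5 groups, with 8 residual degrees of freedom and Benjamini-Hochberg adjustment. The fitting was also run on simulated data with independent noise and far fewer changed genes than were called here. That run therefore gives no error rate for these calls. Genes named are the 10 largest rises and falls with arrays that did not overlap, key members and up to 3 called members per direction of each list, single calls against a list's direction and the 4 largest differences between genotypes per direction; some of these are not printed. The comparison and the lists were chosen with earlier results of these data known. Ncapg, Kif2c and Ube2c and the antibody-secreting cell list were chosen after the values were seen. Promoter windows come from RefSeq (GRCm38.p6). Alternatives changed the normalization, filter, probe set rule, centring, arrays, variance prior, array weights, threshold and replicate block.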

Additional observations from a re-analysis of the deposited data

Results flagged for a closer look

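For 75 of the genes named here the MP against HSC contrast differed between the genotypes by limma's test of that difference (adjusted p below 0.05), and each value is the hypomorph log2 fold change minus the wildtype one. Among the cell division genes, the difference was -4.75 for Depdc1a, -4.36 for Esco2, -3.69 for Ect2, -3.45 for Bub1, -2.89 for Aurkb and -2.58 for Smc2. The others of these were -2.43 for Ncapg, -1.79 for Kif2c, -1.65 for Ccna2, -1.64 for Mki67, -1.61 for Plk1 and -1.32 for Ube2c. It was, among the genes of DNA replication and G1, -4.30 for Ccne2, -2.72 for Mcm4, -2.36 for Cdc6, -2.01 for E2f8 and -1.85 for Rrm2. The others of these were -1.69 for Prim2, -1.67 for Mcm2, -1.63 for Skp2, -1.59 for Rrm1 and -1.0 for Prim1. For the granulocyte and monocyte genes and Chdh it came to -5.08 for Ccr1, -4.17 for Chdh, -3.54 for Ccr2, -3.24 for Ctsg, -3.09 for F13a1, -2.93 for Ms4a3, -2.02 for Cst7 and -1.61 for Fcgr3. In the mast cell and basophil genes it was -3.66 for Fcer1a, -3.14 for Cpa3, -2.45 for Ms4a2, -2.34 for Mcpt8, -2.15 for Siglecf and -1.72 for Hdc. The values of the erythroid and platelet genes were -2.24 for Plek, -2.04 for Rhag, -1.70 for Aqp1, -1.60 for Gata1 and -1.44 for Tfrc. Among other genes with a difference below 0, it was -4.59 for Dntt, -2.54 for Btg1, -2.49 for Itgal, -2.45 for Cd48, -2.32 for Hells, -2.11 for Ddx21 and -2.11 for Abcb1b. Beside them stood -1.97 for Uhrf1, -1.79 for Idh3a, -1.63 for Ezh2, -1.63 for Hsp90aa1, -1.51 for Slamf1 and -1.23 for Zbtb33. The differences ran the other way, above 0, in the genes that follow. For the imprinted genes they were 1.24 for Igf2, 1.34 for Igf2r, 1.68 for Ndn and 2.72 for Meg3. In other genes whose fall in MP was smaller in the hypomorph they were 1.40 for Ltb, 1.43 for Zfp36, 1.44 for Tgm2, 1.48 for Fzd4, 1.55 for Smad6, 1.57 for Fgfr1 and 1.75 for Bgn. The others of these were 1.88 for Ifit1, 1.93 for Junb, 1.99 for Egr1, 2.03 for Col1a2, 2.30 for Upp1 and 2.31 for Hoxb5os. Last, in genes with values above 0 in the hypomorph and below 0 in the wildtype they were 2.33 for Pglyrp1, 2.89 for Selenom, 2.97 for Pde2a and 2.99 for BC018473. Standard errors were 0.26 to 0.70. Since most of these genes were named for a large wildtype change, and the wildtype arrays enter both, differences that bring the value toward 0 are favoured by that choice. No group held 4 arrays, so single arrays were not tested for standing apart.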

How the results depend on the processing

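The MP against HSC contrast gave 4050 calls, and without each array in turn 2548 to 4549 (2548 without HSC wildtype 2). With a minimum fold change of 1.5 in the test it gave 1352. Same-numbered MP and HSC wildtype arrays correlated at 0.119 and 0.101 in their deviations from the group mean. With 2 HSC arrays these deviations mirror each other, so the values cannot decide whether the replicate numbers pair the arrays. The fit with the replicate block gave 3385 calls. Limits of precision are the number of arrays and signal near background, and 5924 probe sets passed when each was tested alone. MP against B progenitors gave 4571 calls, 7397 with every probe set, 2179 with the minimum fold change and 3064 to 4958 without each array. MP against HSC in the hypomorph gave 1485 calls, 4496 with array weights, 401 with the minimum fold change and 972 to 2017 without each array. The difference between genotypes gave 717 calls, 3256 with array weights, 375 with the replicate block, 72 with the minimum fold change and 241 to 1444 without each array. The causes of these shifts were not tested, except that a minimum fold change is a stricter test and single probe sets are more numerous than genes. No other setting moved these 4 counts by over 1.5 times. Of the 271 genes named, 199 were called and 158 of these stayed called without each array in turn. Calls ended in 9 with probe sets averaged, in 3 with the second normalization, in 9 with the replicate block, in 10 with only the arrays compared and in 5 with arrays centred (Hoxa5, Hoxb4, Gfi1b, Kif15 and Ndufb9). Averaging the probe sets moved 54 of the 199 called values by over 1.5 times, each given beside its gene. None of the 199 turned its sign under any setting tried. Over all genes, 1894 called ones had a further tested probe set, of which 439 had one of the other sign and 49 one called the other way. Where neither the main fit nor the alternative called a gene, a turned sign was not counted as a change. List medians close to 0 turned sign under some settings, those of the megakaryocyte, lymphoid priming, macrophage and stroma, cell cycle inhibitor, cholesterol, adhesion, DNA methylation, Polycomb and antibody-secreting cell lists.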
